A study of Mus musculus with 5 samples.

Results

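The neural tube, the embryonic tissue that gives rise to the brain and spinal cord, was profiled by RNA-seq in mouse embryos that lacked the erythropoietin receptor and in littermate controls, and the 6 genes of the ATM and ATR family of PI3K-like kinases are described here. The family members are Atm, Atr, Prkdc, Mtor, Smg1 and Trrap, taken by gene symbol, and all 6 were present among the 23284 gene rows and among the 12703 genes tested. The set was chosen with earlier results of these data known. The study itself had already reported lower Atm and Atr in the EpoR-null neural tubes. The 5 libraries of polyA RNA were made from neural tubes, 2 of them EpoR-null (EpoR -/-), 2 wild type (EpoR +/+) and 1 heterozygous (EpoR +/-), at E8.5 by the sample labels (the text of the study gives a slightly later age). The wild type and heterozygous libraries together were the 3 controls. The parents were heterozygous mice, so the deletion was inherited and not restricted to neural cells.

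PI3K-like kinases are very large proteins whose catalytic domain resembles that of the PI3 lipid kinases but which phosphorylate proteins. ATM responds to DNA double-strand breaks, ATR to single-stranded DNA at stalled replication forks, and Prkdc encodes the catalytic subunit of DNA-PK, which joins broken ends. The other members work elsewhere: mTOR couples growth to nutrients and growth factors, SMG1 phosphorylates UPF1 in nonsense-mediated mRNA decay, and TRRAP is a family member without kinase activity that serves as a scaffold for histone acetyltransferase complexes. Loss of Atr or Mtor is lethal early in mouse development, whereas Atm-null mice are viable, and the damage-response members are known to guard dividing neural progenitors.

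All members have long transcripts. By GENCODE M21 on GRCm38, the longest annotated transcript was 9.819 kb for Atm (chromosome 9, 53439149 to 53536740, minus strand, 62 exons) and 8.102 kb for Atr (chromosome 9, 95857597 to 95951781, plus strand, 47 exons). It was 12.647 kb for Prkdc (chromosome 16, 15637866 to 15842235, plus strand) and 8.564 kb for Mtor (chromosome 4, 148448611 to 148557683, plus strand). Smg1 had the longest at 15.557 kb (chromosome 7, 118131308 to 118243670, minus strand), and that of Trrap was 12.479 kb (chromosome 5, 144767732 to 144859778, plus strand). The reads themselves were aligned by the submitters to mm9, an earlier build, so these positions locate the genes and not the reads. In this annotation Atr shared 726 exon bases with 1700065D16Rik, and the other 5 members shared none with another gene in the tables.

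Atm and Atr, which are among the damage-response members, are shown with the DNA just before their start sites. Patterns for NRF1 and STAT5 were searched because the study considered factors of these names downstream of erythropoietin. Mtor is shown because it was the member with a STAT5-type match. The paper's discussion describes its NRF1 as a cap n collar factor of antioxidant response and Maf recognition elements. Those elements, and sites of REST, another factor of the study, were not searched. RefSeq start sites on GRCm38.p6 were found for Atm, Atr, Mtor, Smg1 and Trrap. The 250 bases before the start site are printed 5′ to 3′ on the strand of the gene for Atm (chr9:53536672-53536921, minus strand), Atr (chr9:95857347-95857596, plus strand) and Mtor (chr4:148448332-148448581, plus strand). Capitals mark matches on either strand to CGCANGCG, the core of the site of nuclear respiratory factor 1 (also abbreviated NRF1), or to TTCNNNGAA, the spacing bound by STAT5. No window held both patterns, and the GENCODE start of Atm lies inside the window shown. The window searched for Trrap (chr5:144768544-144768843, plus strand) lies downstream of its GENCODE start at 144767732. The DNA before that start of Trrap was not searched.
Atm: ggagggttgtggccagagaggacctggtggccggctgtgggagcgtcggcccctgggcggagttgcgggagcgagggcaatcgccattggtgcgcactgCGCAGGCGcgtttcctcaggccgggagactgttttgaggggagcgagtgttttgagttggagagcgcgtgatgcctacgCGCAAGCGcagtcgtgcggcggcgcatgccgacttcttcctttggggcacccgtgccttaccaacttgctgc
Atr: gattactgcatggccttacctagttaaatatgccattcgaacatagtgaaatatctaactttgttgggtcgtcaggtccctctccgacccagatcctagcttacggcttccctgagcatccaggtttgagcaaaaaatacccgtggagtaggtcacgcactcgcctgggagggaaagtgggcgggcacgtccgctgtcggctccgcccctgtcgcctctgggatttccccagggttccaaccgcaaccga
Mtor: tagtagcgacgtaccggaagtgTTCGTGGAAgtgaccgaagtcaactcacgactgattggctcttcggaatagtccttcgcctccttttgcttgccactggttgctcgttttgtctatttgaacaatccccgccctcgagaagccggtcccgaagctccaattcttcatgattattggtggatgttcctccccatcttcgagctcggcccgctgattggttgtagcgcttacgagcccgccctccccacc
In windows of 300 bases around the start site (250 before and 50 after), the NRF1 core was found for Atm, at 2 places, and for none of the other 4 members searched, against 8.21% of all 32851 windows. The STAT5 pattern was found for Mtor, at 1 place, and for none of the other 4, against 8.30% of all windows. These matches describe letters and not binding, and the expression of members with and without a match is given below.

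Before the values of the members, the library labelled heterozygote is described, because it was unlike the other controls in several markers. It was kept among the controls except where it is said to be left out. Epor, the targeted gene, had 2.35 and 1.62 CPM in the wild type libraries (57 and 68 reads), where CPM is the read count of a gene relative to the TMM-normalized size of its library. It had 0.476 CPM (11 reads) in the library labelled heterozygote and 0.354 and 0.669 CPM (7 and 19 reads) in the libraries of the null genotype. The library labelled heterozygote thus lay at the null level for Epor, and the difference between null and control libraries was not called (log2 -1.51, SE 0.76, FDR 0.280 in the exact test of edgeR). Which part of Epor is deleted, and whether the counted reads fall in it, is not given in the sources used here. That library also had 43.7 CPM summed over the 6 primitive erythroid markers, against 1089 and 601 CPM in wild type and 1689 and 962 CPM in null libraries, and 10.8 CPM over the 5 endothelial markers, against 150 and 235 CPM and 198 and 104 CPM. The 6 neural tube markers, such as Sox2 and Pax6, were present in every library and summed to 1339 to 1539 CPM in controls and 1141 to 1396 CPM in null libraries. The 6 paraxial mesoderm markers summed to 7.82 to 36.6 CPM in controls and 28.4 to 67.9 CPM in null libraries, the 4 of neural crest to 28.8 to 68.9 and 51.3 to 95.6 CPM, and the 3 of epithelium to 4.80 to 23.2 and 13.7 to 28.8 CPM. No tested marker of the 6 lists was called. Hba-a1 had 0 reads in all 5 libraries and Myf5 had 0 reads in 3. The part of cell content in the results for the kinases was not tested. Libraries held 19316126 to 41169218 reads on genes, 3 reads corresponded to 0.0715 to 0.152 CPM, and the members had 422 to 7693 reads each per library.

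Transcripts of all 6 kinases were reduced in the EpoR-null neural tubes, to between 54.8% (Smg1) and 69.1% (Mtor) of the control mean. Among the damage-response kinases, Atm had 92.8 and 87.3 CPM in the wild type libraries, 98.9 CPM in the library labelled heterozygote and 55.9 and 48.1 CPM when EpoR was absent. Both EpoR-null values lay far below every control. Its mean was 93.0 ± 5.78 CPM in controls (SD, n = 3) against 52.0 ± 5.50 CPM without the receptor (SD, n = 2), or -0.84 as a log2 fold change (SE 0.15). Atr had 81.3 and 64.7 CPM in wild type, 78.2 CPM in the library labelled heterozygote and 51.5 and 47.4 CPM when EpoR was absent. The groups again did not overlap, although wild type replicate 2 was lower than the other controls. Atr averaged 74.7 ± 8.83 CPM in controls (SD, n = 3) against 49.4 ± 2.88 CPM (SD, n = 2), or -0.60 as a log2 fold change (SE 0.17). Prkdc, the member with the fewest reads, had 30.4 and 27.0 CPM in wild type, 35.6 CPM in the library labelled heterozygote and 21.3 and 17.3 CPM when EpoR was absent. Here the gap between the lowest control and the highest EpoR-null library was 5.68 CPM, and the log2 fold change was -0.68 (SE 0.23).

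The members of other function had log2 fold changes between -0.87 and -0.53. Mtor, the kinase of the growth-controlling complexes mTORC1 and mTORC2, had 121 and 126 CPM in wild type, 125 CPM in the library labelled heterozygote and 89.7 and 81.8 CPM when EpoR was absent. The controls of Mtor lay within a narrow band (124 ± 2.35 CPM, SD, n = 3), and both EpoR-null libraries fell beneath it, with a log2 fold change of -0.53 (SE 0.13). Smg1, the decay kinase, had 141 and 117 CPM in wild type, 139 CPM in the library labelled heterozygote and 81.7 and 63.2 CPM when EpoR was absent. It had the largest fold change of the 6 (log2 -0.87, SE 0.18) and also the widest spread among the EpoR-null libraries. Trrap, the scaffold, had 176 and 183 CPM in wild type, 188 CPM in the library labelled heterozygote and 123 and 122 CPM when EpoR was absent, a log2 fold change of -0.58 (SE 0.13). The library labelled heterozygote was above the wild type mean for every member, by between 0.02 (Mtor) and 0.31 (Prkdc) on the log2 scale. Neural tubes are bulk tissue, in which fewer cells of a type and less RNA per cell cannot be told apart.

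**Figure D1:**
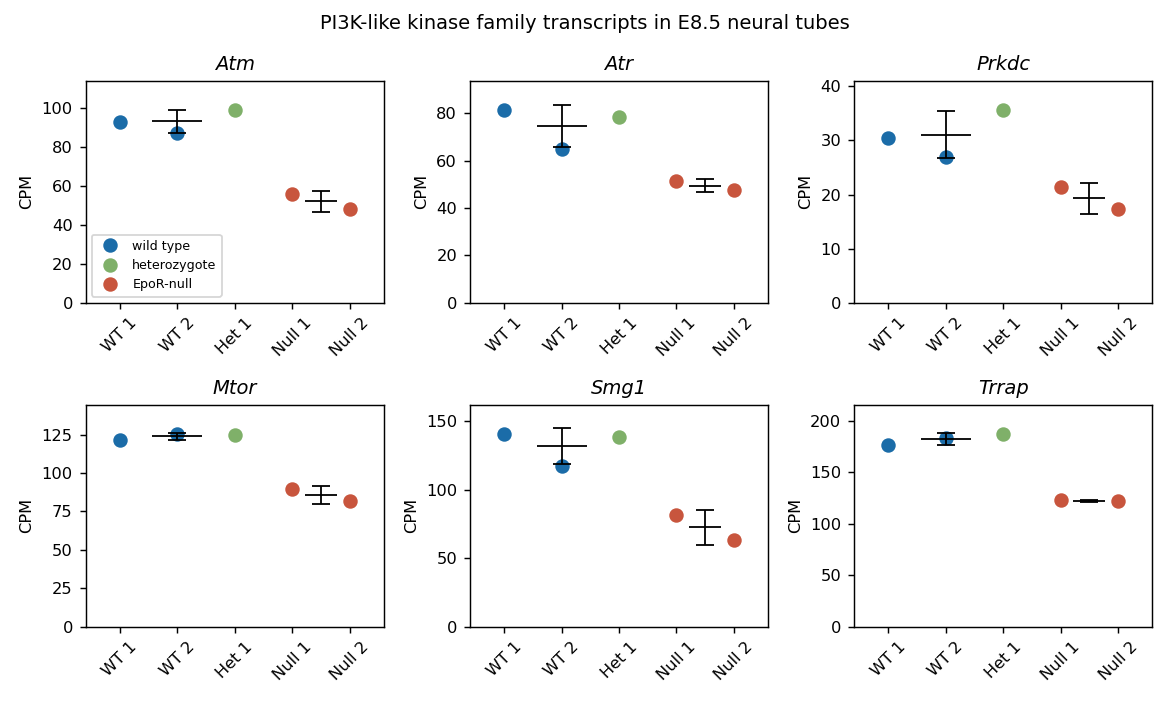
CPM (vertical axes, from 0) of the 6 family members in each of the 5 libraries, coloured by genotype, with horizontal and error bars for the mean and SD of the 3 controls and of the 2 EpoR-null libraries. In every panel both EpoR-null libraries lie below all 3 controls, with EpoR-null means at 54.8% to 69.1% of the control means.

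In the exact test of edgeR, fitted over all genes with Benjamini-Hochberg adjustment (FDR), all 6 members were called lower at FDR < 0.05, while 5.49% of all tested genes were called lower and 1.81% higher. The FDR was 1.26e-05 for Atm, 0.0140 for Atr, 0.0491 for Prkdc, 0.00262 for Mtor, 0.000304 for Smg1 and 0.000785 for Trrap. At the stricter threshold of the paper, p < 0.001 together with FDR < 0.05, 5 members were called lower and Prkdc was not, with 3.84% of all tested genes called lower. Every member had both EpoR-null libraries below every control, which 22.1% of all tested genes did. When the quasi-likelihood F-test was used instead, 0 members and 0 genes in all were called, although all 6 members and 3052 genes had an unadjusted p under 0.05. In that test the FDR of the members ran from 0.0590 (Atm and Trrap) to 0.1035 (Prkdc). Calls in the exact test also fell when a single control was left out, over all genes as well as among the members. Without wild type replicate 1 the members called were 2, Atm and Smg1, and the genes called in all were 115, against 928 with every library. Without the library labelled heterozygote 3 members were called, Atm, Smg1 and Trrap, and 253 genes in all. The log2 fold changes of the 6 then ran from -0.83 (Smg1) to -0.53 (Mtor). With wild type replicate 2 left out 4 members were called (Prkdc and Mtor were lost) and 313 genes in all. With EpoR-null replicate 2 left out, which leaves 1 library in that group, the log2 fold changes ran from -0.73 (Atm) to -0.47 (Mtor).

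Levels of different genes were compared per kilobase of the longest transcript. In controls the order was Trrap with 14.6 ± 0.46 CPM per kb (SD, n = 3), Mtor with 14.5 ± 0.27, Atm with 9.47 ± 0.59, Atr with 9.22 ± 1.09, Smg1 with a range of 7.53 to 9.07 and Prkdc with 2.45 ± 0.34. Trrap and Mtor did not differ beyond their spread, nor did Atm, Atr and Smg1, while Prkdc lay below all others in every control. In EpoR-null libraries the middle group had 6.10 ± 0.36 CPM per kb (SD, n = 2) for Atr, 5.30 ± 0.56 for Atm and 4.66 ± 0.84 for Smg1. The ranges of Atr (5.85 to 6.35 CPM per kb) and Atm (4.90 to 5.69 CPM per kb) did not overlap there, whereas those of Atm and Smg1 (4.07 to 5.25) did. Per kilobase of coding sequence, the control means were 12.05 ± 1.20 CPM for Smg1, 10.1 ± 0.63 for Atm and 9.43 ± 1.11 for Atr (SD, n = 3). The EpoR-null means were then 6.60 for Smg1, 6.24 for Atr and 5.66 for Atm, so the order depended on the length used. Reads were not restricted to coding sequence, which is 10.974 kb of 15.557 kb for Smg1. For Atm it is 9.198 kb of 9.819 kb, and for Atr 7.923 kb of 8.102 kb.

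Atm and Atr were next compared with the other 4 members within each library, where any scaling of the whole library cancels. A trend on transcript length, described below, does not cancel, and Smg1, Prkdc and Trrap have longer transcripts than Atm and Atr. The mean log2 CPM of Atm and Atr minus that of Prkdc, Mtor, Smg1 and Trrap was -0.17 and -0.30 in the wild type libraries, -0.24 in the library labelled heterozygote, and -0.30 and -0.27 without the receptor. EpoR-null replicate 2 lay inside the control range and replicate 1 just below its lowest value. The means were -0.24 ± 0.063 (SD, n = 3) and -0.29 ± 0.026 (SD, n = 2), and the difference of -0.049 was smaller than the spread between controls (two-sided exact permutation test, p = 0.4, where 2 against 3 libraries allow no p below 0.1). A difference in fold change between Atm and Atr and the rest of the family was therefore not detectable with these libraries. With Prkdc, also a damage-response kinase, left out of the rest, the difference was -0.053. With all 4 in the rest and each library's trend on length and GC content removed, it was -0.10. Singly, Atm minus the mean of the other 5 differed by -0.19, from 0.003 ± 0.024 (SD, n = 3) to -0.19 ± 0.021 (SD, n = 2), with no overlap (exact permutation p = 0.1). Smg1 differed by -0.23 relative to the other 5 in the same way (exact permutation p = 0.1), both at the smallest p this design can give. Atr differed by 0.11, Prkdc by 0.0036, Mtor by 0.18 and Trrap by 0.13 relative to the other 5, with exact permutation p of 0.3 to 1. Over these 7 comparisons the smallest Benjamini-Hochberg adjusted p was 0.35.

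The fold changes of the members were set beside those of other transcripts of like length. Over the 12584 tested genes with an annotated transcript, the median log2 fold change went from 0.48 for transcripts under 1 kb to -0.68 for those of 12 kb or longer. It was 0.11 between 2 and 4 kb, -0.35 between 6 and 8 kb, -0.46 between 8 and 10 kb and -0.53 between 10 and 12 kb. Among the 776 tested genes of 8 kb or longer, the class that holds all 6 members, the median was -0.50 with the middle 50% from -0.72 to -0.21, 33.8% were called lower, 0% were called higher, and 63.0% had both EpoR-null libraries below every control. The median of the 6 members was -0.64, against 0.056 over all tested genes. Of the long transcripts, 14.8% had a lower log2 fold change than Atm, 12.9% than Smg1, 30.4% than Prkdc, 40.2% than Atr, 42.0% than Trrap and 47.2% than Mtor. Atr, Prkdc, Mtor and Trrap therefore lay within the middle 50% of all transcripts of 8 kb or longer, and Atm and Smg1 lay below it. Prkdc, Smg1 and Trrap belong to the narrower class of 12 kb or longer, with the middle 50% from -0.84 to -0.25. There Prkdc (-0.68) lay about at the median, Trrap (-0.58) above it and Smg1 (-0.87, SE 0.18) just below the middle 50%.

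**Figure D2:**
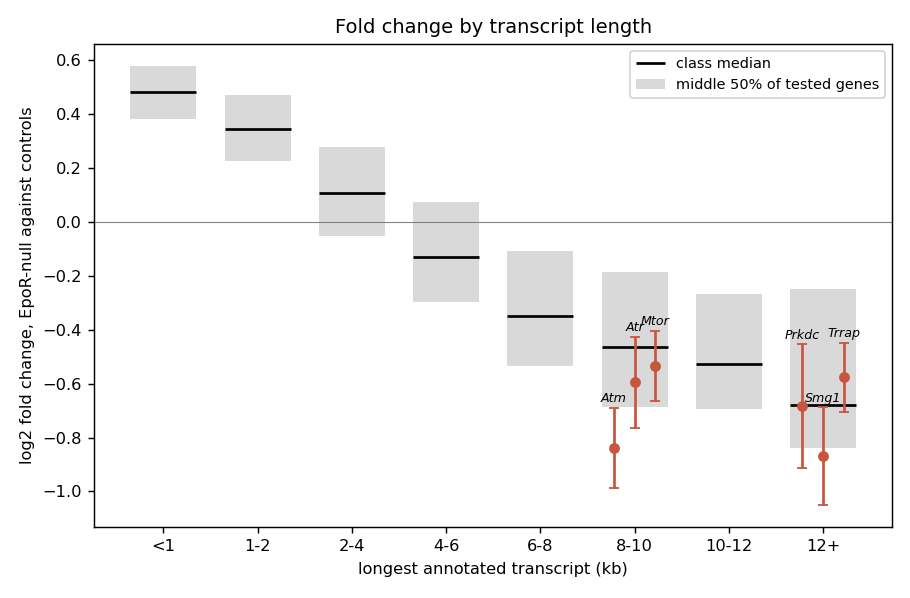
Log2 fold change of EpoR-null against controls (vertical axis) for tested genes grouped by the longest annotated transcript in kb (horizontal axis), with grey boxes for the middle 50% of genes, black lines for class medians and red points with SE bars for the 6 members. Class medians descend from 0.48 under 1 kb to -0.68 at 12 kb or longer, and Atr, Prkdc, Mtor and Trrap lie inside the boxes of their own classes, with Atm and Smg1 below theirs.

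The same relation was present library by library. Relative to the mean of the 5 libraries, the median log2 CPM of transcripts of 8 kb or longer was 0.28 and 0.12 in wild type replicates 1 and 2, 0.29 in the library labelled heterozygote, and -0.14 and -0.52 in EpoR-null replicates 1 and 2. Transcripts under 1 kb went the other way, at -0.19, -0.18 and -0.15 in the controls and 0.14 and 0.41 in the EpoR-null libraries. EpoR-null replicate 2, which had the lowest value for long transcripts, was also the lower EpoR-null library for all 6 members, by between 0.02 (Trrap) and 0.37 (Smg1) on the log2 scale. In EpoR-null replicate 1 every member was lower than the median of long transcripts, with values from -0.40 (Atm) to -0.25 (Mtor) against -0.14. In EpoR-null replicate 2 Smg1 (-0.71), Atm (-0.61) and Prkdc (-0.56) were lower than that median, and Atr (-0.41), Mtor (-0.39) and Trrap (-0.35) were higher.

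**Figure D3:**
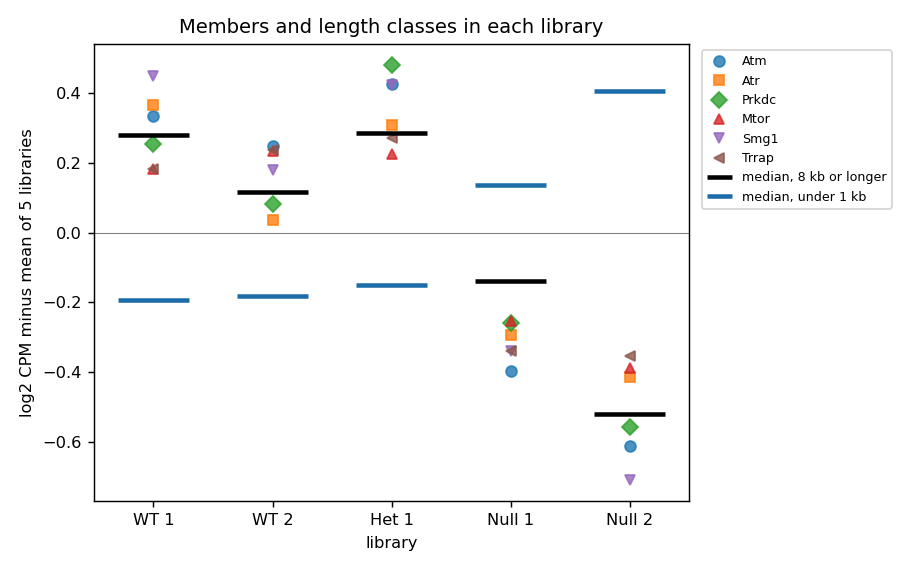
Log2 CPM minus the mean of the 5 libraries (vertical axis) for the 6 members (symbols) in each library (horizontal axis), with the median over tested transcripts of 8 kb or longer (black lines) and under 1 kb (blue lines). The members are above 0 in the 3 controls and below 0 in both EpoR-null libraries, on the same side as the long transcripts, whose median was -0.14 and -0.52 in EpoR-null replicates 1 and 2.

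When each library's trend on transcript length and GC content was removed by offsets, the log2 fold changes shrank to -0.32 for Atm, -0.21 for Smg1, -0.17 for Mtor, -0.13 for Atr, -0.075 for Prkdc and -0.043 for Trrap. All 6 kept their sign, and 0 members were called by the likelihood-ratio test of edgeR (FDR 0.706 for Atm, 0.897 for Smg1 and 0.99985 for the other 4), with 0 at an unadjusted p under 0.05. The same test without offsets called all 6. Atm was the member with the most left of its difference, at an unadjusted p of 0.0617. The length trend differed between the genotypes, so the offsets also take out any difference by genotype that long transcripts share, and the 2 cannot be told apart.

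**Figure D4:**
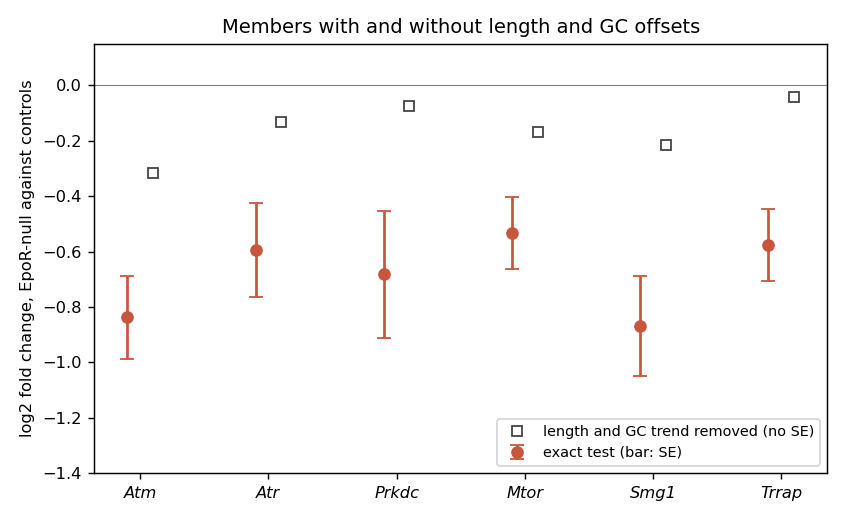
Log2 fold change of EpoR-null against controls (vertical axis) for the 6 members, from the exact test with SE (red circles) and after removal of each library's trend on transcript length and GC content (open squares, no SE). The values move from between -0.87 and -0.53 to between -0.32 and -0.043, and none crosses 0.

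The partners of the kinases were then examined in 11 lists of 105 genes, of which 103 were tested. In the exact test 13 of them were called lower, 0 higher and 90 not called, with a median log2 fold change of -0.058. That is 12.6% called lower, against 5.49% of all tested genes. The absence of higher calls did not hold with DESeq2, another test, which called 22 of 101 tested partners lower and 3 higher. Over all 10485 genes tested by DESeq2, 1162 were called lower and 575 higher. Of the ATM partners in the MRN complex, which senses double-strand breaks, 1 of 3 was called, Rad50 (log2 -0.57, SE 0.16, FDR 0.0120). Rad50 went from 54.0 ± 3.95 CPM (SD, n = 3) to 36.4 ± 1.14 CPM (SD, n = 2), while Nbn had a log2 fold change of -0.10 (FDR 0.751) and Mre11a of -0.29 (FDR 0.220). Of 14 partners and activators of ATR, 2 were called lower, Topbp1, the main activator of ATR (-0.45, FDR 0.0214), and Clspn, the adaptor that brings it to CHK1 (-0.48, FDR 0.0279). Atrip, the obligate partner of ATR, had -0.27 (FDR 0.466). The median of these 14 genes was -0.024, and their log2 fold changes ran from -0.48 to 0.46. Of 10 substrates, 3 were called lower: Mdc1, a scaffold at breaks (-0.68, FDR 6.63e-05), Fancd2, of the crosslink repair pathway (-0.59, FDR 0.00373), and Brca1, of homologous recombination (-0.52, FDR 0.00518). The checkpoint kinases Chek1 (-0.13, FDR 0.635) and Chek2 (-0.19, FDR 0.623) and Trp53 (0.20, FDR 0.711) were not called.

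Of the 6 DNA-PK and end joining partners 0 were called, with log2 fold changes from -0.44 (Lig4, the end joining ligase) to 0.50 (Nhej1), and the Ku subunits Xrcc5 and Xrcc6 had -0.03 and 0.17. Of 8 mTOR complex subunits, 1 was called lower, Deptor, an inhibitory subunit, which was near the detection limit (1.36, 1.76 and 1.90 CPM in controls, 0.556 and 0.423 CPM in EpoR-null libraries, log2 -1.79, SE 0.48, FDR 0.00989). Deptor passed the filter of CPM above 1 in at least 2 libraries through the controls alone. Its call, counted among the 13 lower partners, is therefore not independent of the filter. The defining subunits of mTORC1 and mTORC2, Rptor (-0.38, FDR 0.0898) and Rictor (-0.69, FDR 0.0951), were not called. The 8 subunits had a median of -0.022, with log2 fold changes from -1.79 to 0.50. Of 9 mTOR regulators and substrates, 2 were called lower, Eif4ebp2, a repressor of translation that mTORC1 inactivates (-0.69, FDR 5.29e-05), and Tsc1, of the complex that restrains mTORC1 (-0.63, FDR 0.0131). The median of these 9 was -0.14, with log2 fold changes from -0.69 to 0.39. Among the partners of SMG1 in nonsense-mediated decay, Upf1, the substrate of SMG1, had -0.22 (FDR 0.464) and was not called.

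Of 14 TRRAP partners in the TIP60 acetyltransferase complex, 1 was called lower, Ep400, its chromatin remodelling ATPase (-0.68, FDR 5.96e-05), and of 15 in the SAGA complex 1 was called lower, Supt20, listed under its older symbol Fam48a (-0.52, FDR 0.0359). The 7 chaperones of the TTT and R2TP complexes, which help newly made PI3K-like kinases to mature, had log2 fold changes from -0.21 (Tti1) to 0.46 (Pih1d1) and 0 were called. Of the PI3K and PI4K lipid kinases, 8 of 10 were tested and 1 was called lower, Pik3c2a, a class II PI3 kinase (-0.69, FDR 0.0206). In the quasi-likelihood F-test 0 of the 103 partners were called, and 31 had an unadjusted p under 0.05. The shortest transcript among the 13 called partners was that of Supt20 at 3.753 kb. By length, a grouping chosen after the values were seen, 0 of 32 partners under 3 kb were called (median log2 0.24), 1 of 40 between 3 and 5 kb (-0.056), 9 of 25 between 5 and 8 kb (-0.44) and 3 of 6 of 8 kb or longer (-0.68). Over all tested genes of the same length bins, 0.463%, 1.53%, 14.7% and 33.8% were called lower, with medians of 0.28, -0.0097, -0.27 and -0.50. The difference between partners and other genes of like length was not tested.

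**Figure D5:**
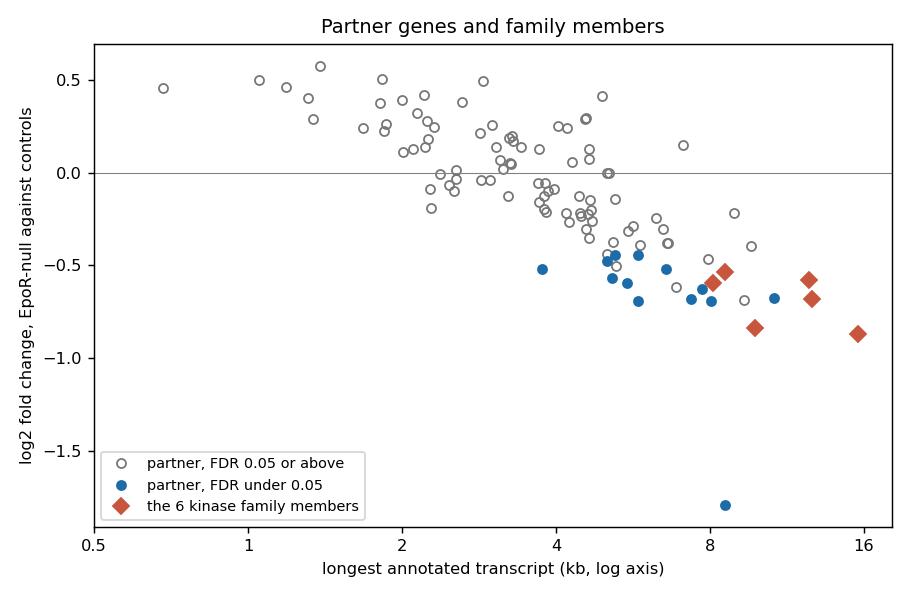
Log2 fold change of EpoR-null against controls (vertical axis) against the longest annotated transcript in kb (horizontal log axis) for the 103 tested partner genes (circles, filled blue where FDR < 0.05 in the exact test) and the 6 members (red diamonds). The 13 called partners have transcripts of 3.753 kb or longer, and the members stand at the long end with log2 fold changes between -0.87 and -0.53.

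The genes whose log2 CPM profile over the 5 libraries, centred on its mean, was closest to that of Atm were Vps13b, Pkd1, Qser1, Odz3 and Mll1, with root mean square differences from 0.0303 to 0.0370. The closest to Atr were Bbx, Pard3b, Tmed8, Sp1 and Rttn, at 0.0272 to 0.0510. Smg1 was 58th in closeness to Atm, with a difference of 0.0775, and Atr was 339th at 0.148. Of these 10 neighbours, the 9 with an annotated length had transcripts of 7.271 to 16.47 kb.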

How the data were processed

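Single-end reads of polyA RNA were trimmed with Trimmomatic 0.32, aligned with TopHat2 2.1.0 to mm9 and counted per gene with HTSeq 0.6.1, per the submitters' processing notes (the paper's methods name a human build and another aligner version). The authors deposited raw read counts per gene symbol, 1 table per sample, without normalization. The annotation and the strand setting of the counting are not given in the sources used here. The 5 closing lines of HTSeq in each table were left out of library sizes. Reads on no feature were 8.11% to 11.0% of those on genes, on no feature or ambiguous. No 2 libraries agreed within sampling noise (lowest chi-square per degree of freedom 11.9). Whether each library is 1 embryo is not stated in the sources used here, so p-values measure the spread between libraries only.

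EpoR-null libraries were compared with the 3 controls as in the paper, by TMM normalization and exactTest of edgeR 4.0.16 (R 4.3.3) with a filter and threshold set here: genes with CPM above 1 in at least 2 libraries, called at FDR < 0.05 (the paper adds p < 0.001 and states no filter). SE values come from the negative binomial information. Log2 CPM used a prior count of 2. The quasi-likelihood F-test, the likelihood-ratio test, DESeq2 1.42.0, other scalings and filters, leaving out each library, and loess offsets (span 0.5) on length and GC of the longest GENCODE M21 transcript (99.1% of tested genes) were alternatives. The gene-wise tests of edgeR and DESeq2 were tried on simulated data, with outcomes not given here, and the permutation test was not. Start-site windows are from RefSeq on GRCm38.p6. Named were all members, up to 4 called genes per list (otherwise its extremes), Epor, and 5 profile neighbours each of Atm and Atr; other partners named were chosen for their role after values were seen. The members and lists were chosen with earlier results of these data known. A result for 1 called partner is not reported here.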

Additional observations from a re-analysis of the deposited data

How the results depend on the processing

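The log2 fold change of each member stayed negative under the 16 alternatives that gave a value of their own, while its size (most of all with offsets) and its call varied. The count of genes called, 928 in the exact test, was 606 with p < 0.001 added to FDR < 0.05, the threshold of the paper (5 members, without Prkdc), 1737 with DESeq2, 0 with the quasi-likelihood F-test (lowest FDR 0.0590), 0 with length and GC offsets in that test without or with the replicate block, and 168 with offsets in the likelihood-ratio test. Leaving out each library gave 115 to 3778 genes, 2 to 6 members called and 3 to 49 partners called (27 lower and 22 higher without EpoR-null replicate 1), where a group left with 1 library is assumed to vary like the other. The 6 members called became 0 in the quasi-likelihood F-test and in each of the 3 fits with offsets, and the 13 partners became 25 with DESeq2 (22 lower and 3 higher) and 0 in the same 4 fits. In the quasi-likelihood F-test the log2 fold changes were -0.84 (Atm), -0.60 (Atr), -0.68 (Prkdc), -0.53 (Mtor), -0.87 (Smg1) and -0.58 (Trrap), all short of the threshold. With offsets they were, in the same order, -0.32, -0.13, -0.075, -0.17, -0.21 and -0.043 in both the quasi-likelihood and the likelihood-ratio test. With offsets and the replicate block they were -0.35, -0.16, -0.090, -0.19, -0.23 and -0.090, and 1 member had an unadjusted p under 0.05. Prkdc, closest to the threshold, also missed it with RLE size factors (-0.69), library size only (-0.72) and no filter on low counts (-0.72). With single libraries left out the ranges were -0.95 to -0.73 (Atm), -0.69 to -0.53 (Atr), -0.84 to -0.54 (Prkdc), -0.60 to -0.47 (Mtor), -1.06 to -0.70 (Smg1) and -0.60 to -0.56 (Trrap). Within libraries, Atm and Atr against the rest differed by -0.12 with Smg1 left out of the rest, -0.0046 with Mtor left out, -0.10 with the length and GC trend removed, and -0.079 to -0.017 with single libraries left out. Apart from the construction of the offsets and of the smaller comparisons, the cause of these changes was not tested.

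The labels number the libraries but do not say that a number marks a litter or a day, so the pairing is only a number. Across genes the difference between replicates 2 and 1 of wild type correlated with that of EpoR-null (Pearson's r 0.427, Spearman's rho 0.529; genes are not independent replicates, 2 pairs). With the replicate number as a block the quasi-likelihood F-test called 695 genes, 5 of the 6 members (not Prkdc, -0.63) and 12 partners, with FDR of the members from 0.0410 to 0.0548.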

Other observations

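Atm and Prkdc each start head to head with another protein-coding gene within 1000 bases, and these neighbours were looked up after the values of the members were known. Npat, which encodes a coactivator of histone gene transcription, starts 307 bases from Atm and has a transcript of 6.062 kb. It had 55.8 and 45.7 CPM in the wild type libraries, 51.3 CPM in the library labelled heterozygote, and 42.1 and 30.5 CPM in the EpoR-null libraries. Both EpoR-null values were below every control, with a log2 fold change of -0.49 (SE 0.21) that was not called (exact test of edgeR, FDR 0.166) and that was -0.16 with length and GC offsets. Mcm4, which encodes a subunit of the replicative helicase, starts 466 bases from Prkdc and has a transcript of 3.589 kb. It had 478 and 489 CPM in the wild type libraries, 487 CPM in the library labelled heterozygote, and 361 and 487 CPM in the EpoR-null libraries, so that EpoR-null replicate 2 lay among the controls and replicate 1 below them. Its log2 fold change was -0.19 (SE 0.18, FDR 0.597), against -0.68 for Prkdc on the other side of the same start region. With length and GC offsets the order in this pair turned round, at -0.16 for Mcm4 and -0.075 for Prkdc. Whether the genes of a pair differ was not tested.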
